A study of Homo sapiens with 8 samples.

Results

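The autophagy genes examined here were 10 named genes that cover the steps by which a cell builds an autophagosome, namely SQSTM1, MAP1LC3B, GABARAPL1, WIPI1, ULK1, BECN1, ATG5, ATG7, ATG12 and ATG16L1. They were taken by gene name, and although the rule used no measured values, the list was drawn up with earlier results of these data known. All 10 were found among the 34164 genes that the 2 deposited tables list between them. RNA was sequenced from Kyse510 cells, an established human line of esophageal squamous cell carcinoma, as 8 libraries, 1 for each condition. In the inhibitor experiment, the cells received vehicle (DMSO), SP2509 (an inhibitor of the histone demethylase LSD1) at 7 µM, UNC0642 (an inhibitor of the histone methyltransferase G9a) at 7 µM, or both together, for 2 days. The dose of each inhibitor in the combination is not stated separately in the labels. In the knockdown experiment, cells carried a doxycycline-inducible shRNA against LSD1 (shLSD1) or against G9a (shG9a), had been selected in puromycin for 14 days, and were either left uninduced or given Dox for 2 days. All 4 knockdown libraries therefore carry a hairpin construct, with 1 hairpin sequence for each target, and no library of a nonsilencing hairpin was used here. An effect of Dox itself cannot be told apart from loss of the target. Below, LSD1 knockdown and G9a knockdown stand for Dox against no Dox in the shLSD1 and shG9a lines.

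Autophagy delivers cytoplasm to the lysosome in a double-membraned vesicle, the autophagosome. The ULK1 kinase complex starts the process, the BECN1 lipid kinase complex marks the membrane with phosphatidylinositol 3-phosphate, WIPI proteins read that lipid, and a pair of ubiquitin-like conjugation systems then attach proteins of the LC3 and GABARAP family to the growing membrane, where receptors such as p62 (SQSTM1) bring cargo. Levels of these mRNAs do not measure the flow of cargo through the pathway, since several of the proteins are themselves degraded by it.

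Library totals recovered from the values ran from 15662035 to 17889466 reads. Each targeted mRNA was lower with Dox in the line carrying its own hairpin. KDM1A, which encodes LSD1, was at 26.0 FPKM in uninduced shLSD1 cells and 6.29 FPKM with Dox. EHMT2, which encodes G9a, was at 7.85 FPKM in uninduced shG9a cells and 4.76 FPKM with Dox. EHMT2 was also lower with both inhibitors, at 5.38 FPKM against 11.1 FPKM with vehicle. With SP2509 and UNC0642 alone it was at 10.2 and 10.3 FPKM. KDM1A was higher with G9a knockdown, at 35.8 FPKM against 26.4 FPKM in uninduced shG9a cells. FPKM counts the fragments that fall on a gene relative to the length of the gene and the depth of the library. The squamous markers KRT5 (74.6 to 734 FPKM) and TP63 (18.3 to 127 FPKM) were present in every library, as were KRT17 and DSG3, while KRT14 (1.10 to 10.1 FPKM) and KRT6A (0.676 to 20.03 FPKM) were low in several. The simple epithelium markers KRT8 (193 to 377 FPKM) and KRT18 (164 to 234 FPKM) were also present in every library. Of the markers of cells other than epithelium, the fibroblast gene COL1A1 was at 2.92 to 5.36 FPKM in every library. COL1A2, PDGFRB, PTPRC (blood cells) and PECAM1 (endothelium) reached at most 0.0108, 0.191, 0.0425 and 0.569 FPKM. With no replicate libraries, no test between conditions was possible. A gene is said to have risen or fallen where (FPKM + 1) differed by at least 1.3-fold and either library reached 1 FPKM. This scale understates the change of genes at low levels. Fold differences are given on FPKM itself, each with an exact (Clopper-Pearson) 95% interval from the reads, which covers counting error only and not the spread between cultures. Because the inhibitor and knockdown tables were made separately, levels are compared within a table only, and levels in bulk RNA do not separate fewer cells expressing a gene from less RNA per cell.

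The 10 genes did not all move together, though the calls were rises only with both inhibitors and mostly falls with G9a knockdown. With both inhibitors, 5 rose and 0 fell, led by MAP1LC3B at 3.27-fold. With G9a knockdown, 6 fell and 1 rose, with WIPI1 falling 3.37-fold. Each inhibitor alone and LSD1 knockdown moved 1 to 3 of the genes. In each of the 5 comparisons, between 18.2% and 32.9% of all tested genes rose and between 12.3% and 39.9% fell, as set out below. Over the 50 pairs of these 10 genes and comparisons, 7 rose, 11 fell and 32 stayed within the threshold. All 18 rises and falls had a counting interval that left out a ratio of 1, as did 23 of the 32 pairs within the threshold. Most differences within the threshold were thus also larger than counting error. ATG5 and ATG7 did not pass the threshold in any of the 5 comparisons.

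**Figure D1:**
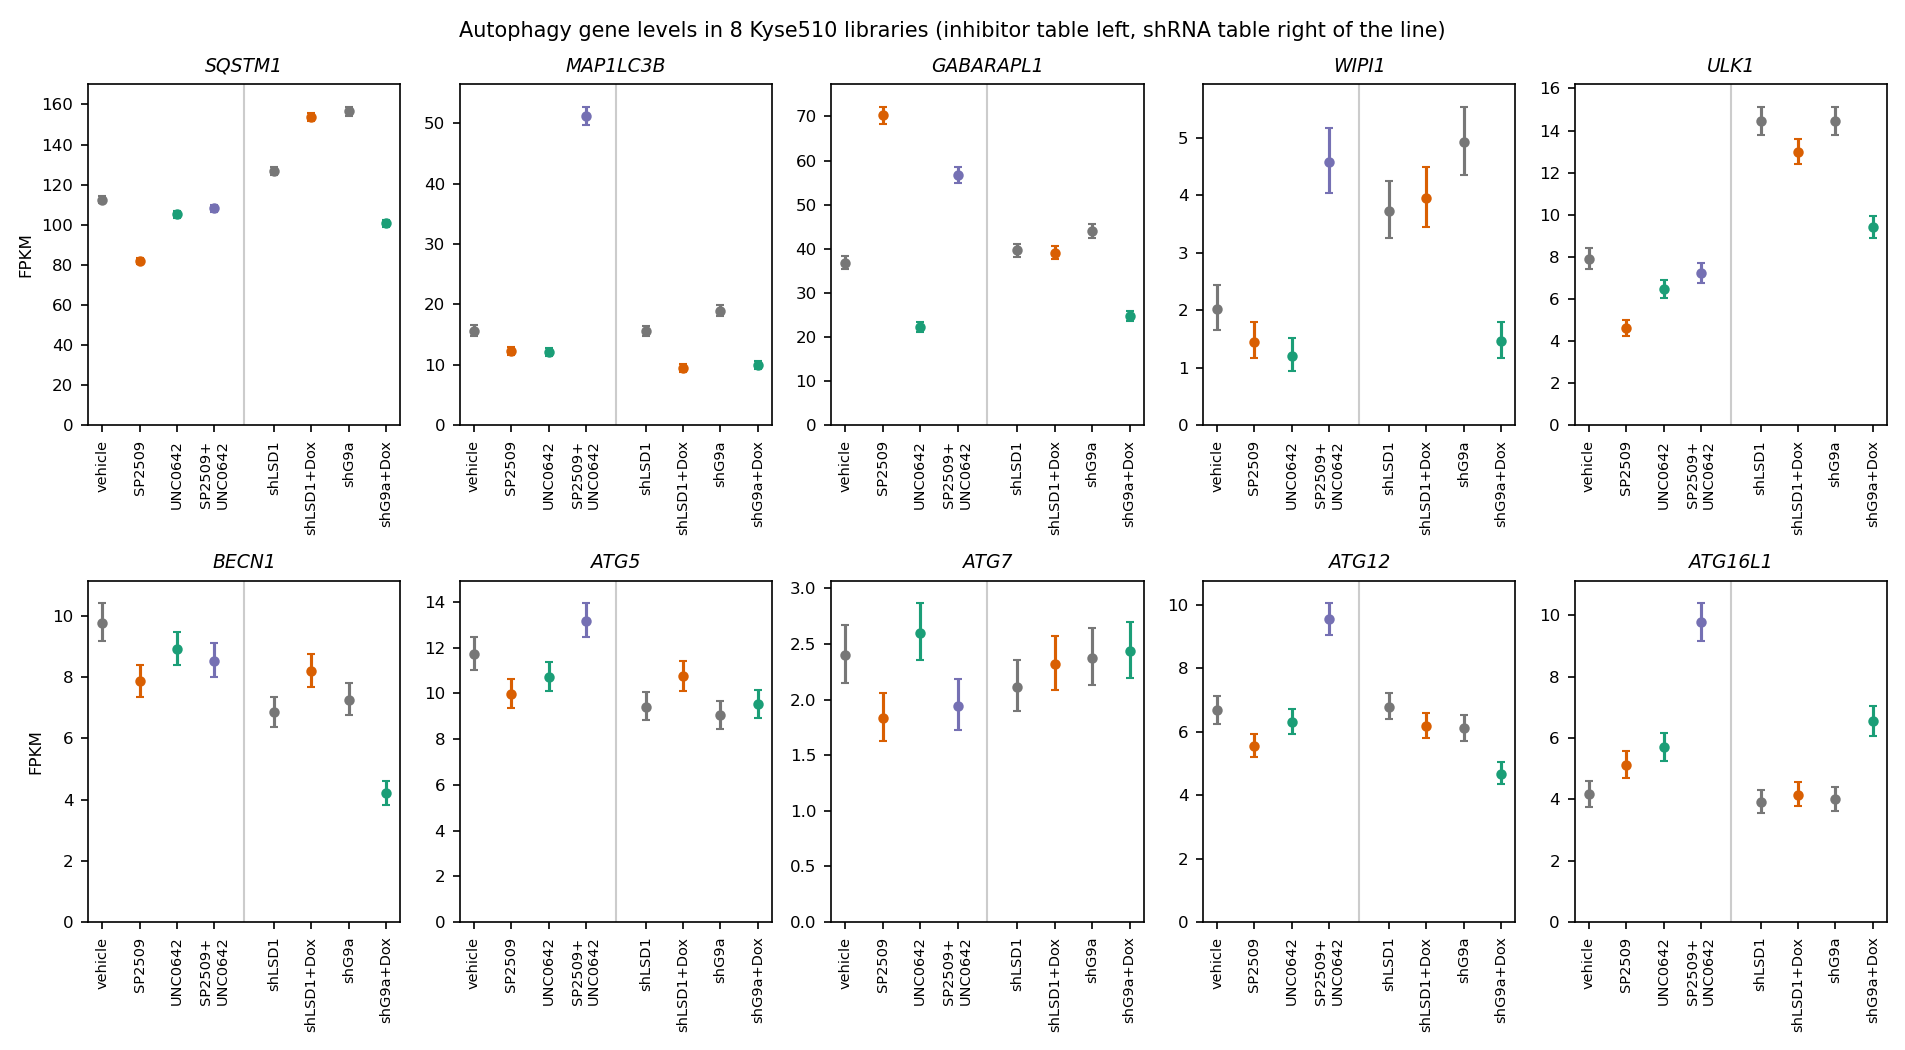
FPKM of the 10 autophagy genes in each of the 8 libraries, in the inhibitor table to the left and the knockdown table to the right of the grey line, with exact 95% Poisson intervals of the reads as bars and each axis starting at 0. MAP1LC3B, WIPI1, ATG12 and ATG16L1 are highest among the 4 inhibitor libraries with both inhibitors, and WIPI1, BECN1 and ULK1 are lowest among the 4 knockdown libraries with G9a knockdown.

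Against these counts stand the shares of all tested genes past the same threshold, which were large. With SP2509, 1 of the 10 genes rose where 21.0% of 13342 tested genes did, and 2 fell where 39.9% did. With UNC0642, 0 rose against 18.2% of 13244 tested genes, and 2 fell against 16.9%. With both inhibitors, 5 rose against 31.4% of 13907 tested genes, and 0 fell against 31.7%. With shLSD1 and Dox, 0 rose against 24.8% of 12970 tested genes, and 1 fell against 12.3%. With shG9a and Dox, 1 rose against 32.9% of 13080 tested genes, and 6 fell against 17.6%. The counts for the single inhibitors and for LSD1 knockdown were thus near or below the background, and the combination and G9a knockdown were where the counts of the 10 genes lay farthest above it. The median log2 fold change of the 10 genes was 0.31 with both inhibitors, where that of all tested genes was -0.02, and -0.60 with G9a knockdown, where that of all tested genes was 0.18. It was -0.27 with SP2509 (all tested genes, -0.21), -0.12 with UNC0642 (-0.01) and 0.07 with LSD1 knockdown (0.13). The uninduced shG9a and shLSD1 lines, which are the nearest thing to repeated libraries, gave a scale for such counts. Between them 0 of the 10 genes rose or fell, where 3.04% of tested genes were higher and 4.51% lower in the shG9a line. Within the threshold, 8 of the 10 were higher and 2 lower in the shG9a line. WIPI1 was 1.32-fold (1.10 to 1.58) and MAP1LC3B 1.22-fold (1.13 to 1.31) higher there before Dox.

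**Figure D2:**
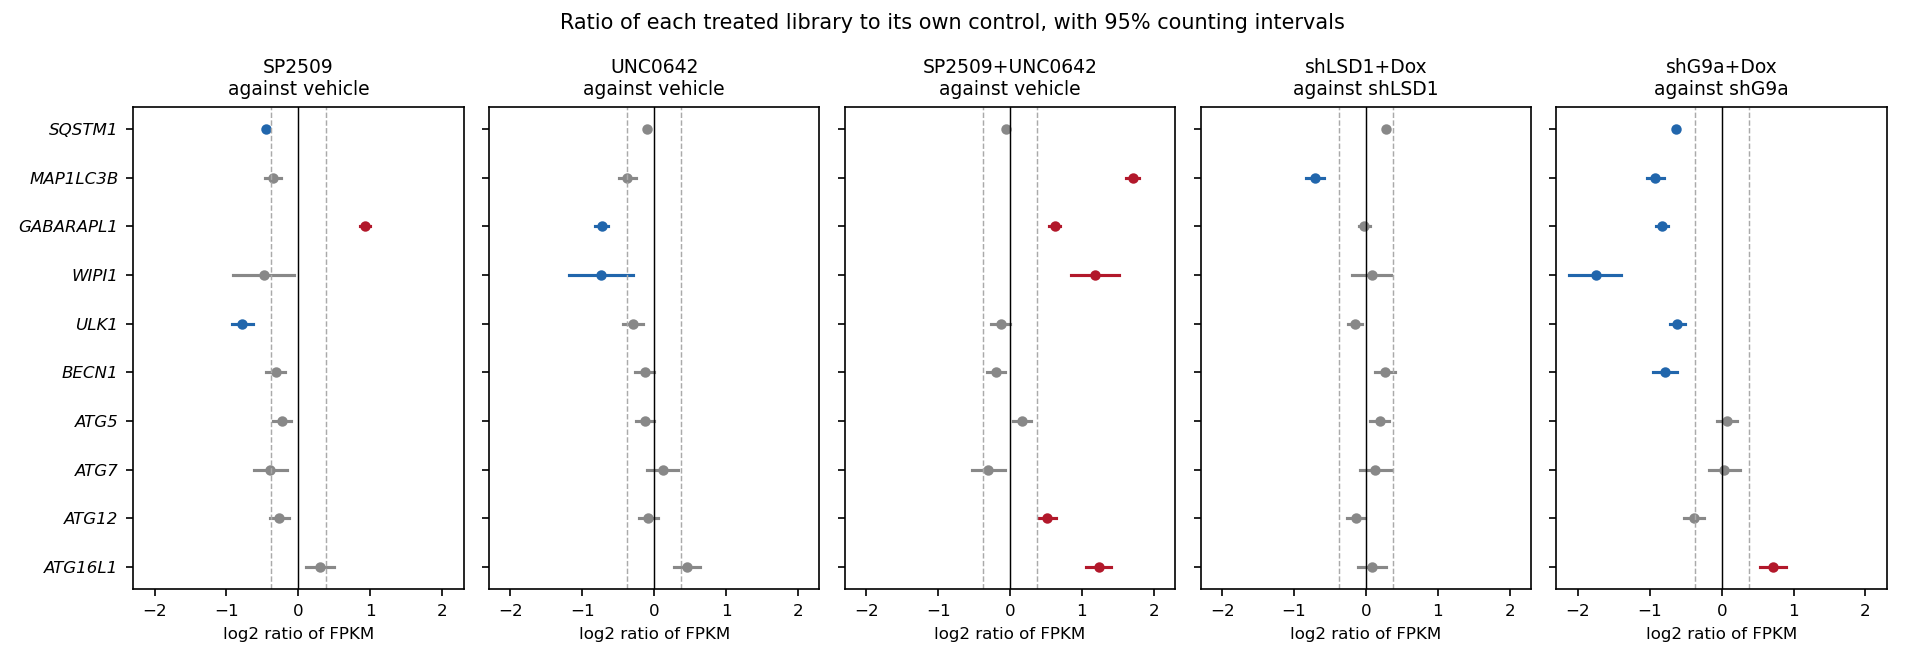
Log2 ratio of FPKM of each treated library to its own control for the 10 autophagy genes, with exact 95% counting intervals as bars. Red and blue mark genes called higher and lower on (FPKM + 1), the dashed lines mark 1.3-fold on FPKM, and grey points past a dashed line are genes of low FPKM that the pseudocount kept within the threshold.

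Starting with initiation, ULK1 (ENSG00000177169, chromosome 12, 131894651 to 131923167, plus strand, GRCh38 as the deposited values give it) encodes the kinase that begins autophagosome formation. It was at 7.92 FPKM with vehicle, 4.61 FPKM with SP2509, 6.46 FPKM with UNC0642 and 7.24 FPKM with both inhibitors. In the knockdown table, it was at 14.4 FPKM in shLSD1 cells, 13.0 FPKM in shLSD1 cells with Dox, 14.4 FPKM in shG9a cells and 9.40 FPKM in shG9a cells with Dox. SP2509 gave the lowest inhibitor library and G9a knockdown the lowest knockdown library, while vehicle and the combination, and likewise the 2 uninduced lines, could not be separated by their counting intervals. ULK1 fell 1.72-fold (1.55 to 1.90) with SP2509 and 1.54-fold (1.43 to 1.65) with G9a knockdown. Its lower level with SP2509 was not seen when UNC0642 was given as well.

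BECN1 (ENSG00000126581, chromosome 17, 42810134 to 42833350, minus strand) encodes Beclin 1, the scaffold of the lipid kinase complex. The inhibitor libraries held 9.79 FPKM with vehicle, 7.86 FPKM with SP2509, 8.92 FPKM with UNC0642 and 8.54 FPKM with both. The knockdown libraries held 6.85 FPKM in shLSD1 cells, 8.20 FPKM in shLSD1 cells with Dox, 7.27 FPKM in shG9a cells and 4.20 FPKM in shG9a cells with Dox. Only the last of these stood past the threshold from its control, with a fall of 1.73-fold (1.54 to 1.94). BECN1 overlaps PSME3 on the opposite strand over 8966 bases, and the strand setting of the authors' counting is not given in the sources used here. PSME3 was at 23.5 FPKM in shG9a cells and 39.5 FPKM with Dox, the opposite direction to BECN1. The directions were also opposite with UNC0642 and with both inhibitors, where PSME3 was at 45.9 and 50.6 FPKM against 45.0 FPKM with vehicle. PSME3 moved the same way as BECN1 with SP2509 (16.4 FPKM) and from shLSD1 cells (20.7 FPKM) to shLSD1 cells with Dox (39.5 FPKM). Whether the genes share reads was not tested.

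WIPI1 (ENSG00000070540, chromosome 17, 68420948 to 68457513, minus strand) encodes a phosphoinositide-binding protein that is recruited to the forming membrane. It was the least abundant of the genes whose level moved strongly, at 2.03 FPKM with vehicle, 1.45 FPKM with SP2509, 1.22 FPKM with UNC0642 and 4.58 FPKM with both inhibitors. In the knockdown table it was at 3.73 FPKM in shLSD1 cells, 3.95 FPKM in shLSD1 cells with Dox, 4.92 FPKM in shG9a cells and 1.46 FPKM in shG9a cells with Dox. The combination was the highest of the inhibitor libraries, and the SP2509 and UNC0642 libraries could not be separated by counting error. WIPI1 rose 2.26-fold (1.80 to 2.85) with both inhibitors, on 263 reads against 108. It fell 1.67-fold (1.23 to 2.27) with UNC0642 alone, on 74 reads, and 3.37-fold (2.64 to 4.35) with G9a knockdown, on 86 reads against 277. These read numbers make WIPI1 the gene with the widest intervals among the 10.

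The conjugation genes ATG5, ATG7, ATG12 and ATG16L1 encode the E1-like enzyme ATG7 and the complex of ATG12, ATG5 and ATG16L1 that places LC3 on the membrane. ATG16L1 (ENSG00000085978, chromosome 2, 233210051 to 233295674, plus strand) moved most of the 4. Its level was 4.16 FPKM with vehicle, 5.13 FPKM with SP2509, 5.70 FPKM with UNC0642 and 9.77 FPKM with both. The knockdown libraries held 3.91 FPKM in shLSD1 cells, 4.16 FPKM in shLSD1 cells with Dox, 3.999 FPKM in shG9a cells and 6.54 FPKM in shG9a cells with Dox. All 3 inhibitor libraries were above vehicle, and the G9a knockdown library was above the other 3 of its table, which could not be separated from their neighbours. ATG16L1 rose 2.35-fold (2.09 to 2.65) with both inhibitors and 1.64-fold (1.44 to 1.85) with G9a knockdown, the only one of the 10 genes to rise there. With UNC0642 alone it was 1.37-fold (1.21 to 1.56) higher, just under the threshold on the (FPKM + 1) scale.

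ATG12 (ENSG00000145782, chromosome 5, 115828200 to 115841858, minus strand) was at 6.67 FPKM with vehicle, 5.56 FPKM with SP2509, 6.31 FPKM with UNC0642 and 9.54 FPKM with both inhibitors. Its knockdown levels were 6.79 FPKM in shLSD1 cells, 6.19 FPKM in shLSD1 cells with Dox, 6.11 FPKM in shG9a cells and 4.68 FPKM in shG9a cells with Dox. It rose with both inhibitors, by 1.43-fold (1.32 to 1.55). With G9a knockdown its log2 fold change of -0.32 was within the threshold, and it passed once values were centred, that is shifted so that genes from 5 FPKM upward had a median of 0 (-0.47), or set against the mean of the uninduced lines (-0.39).

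ATG5 (ENSG00000057663, chromosome 6, 106045423 to 106325791, minus strand) ran from 9.997 to 13.2 FPKM in the inhibitor libraries and from 9.06 to 10.8 FPKM in the knockdown libraries. ATG7 (ENSG00000197548, chromosome 3, 11272309 to 11557665, plus strand) ran from 1.83 to 2.60 FPKM in the former and from 2.12 to 2.44 FPKM in the latter. The log2 fold changes of ATG5 lay between -0.21 and 0.17 and those of ATG7 between -0.26 and 0.09 over the 5 comparisons. In the knockdown table, no neighbouring levels of ATG7 could be separated by counting error.

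MAP1LC3B (ENSG00000140941, chromosome 16, 87383995 to 87404779, plus strand) encodes LC3B, the protein coupled to lipid on autophagosome membranes and widely used to mark them. Its level was 15.7 FPKM with vehicle, 12.3 FPKM with SP2509, 12.1 FPKM with UNC0642 and 51.2 FPKM with both inhibitors. In the knockdown table it was 15.6 FPKM in shLSD1 cells, 9.51 FPKM in shLSD1 cells with Dox, 19.0 FPKM in shG9a cells and 9.99 FPKM in shG9a cells with Dox. Either inhibitor alone, or either knockdown, thus gave a level below its control, and the combination alone gave one above it. MAP1LC3B rose 3.27-fold (3.07 to 3.48) with both inhibitors, on 4590 reads against 1304. It fell 1.64-fold (1.505 to 1.78) with LSD1 knockdown and 1.90-fold (1.75 to 2.06) with G9a knockdown, and the 2 induced libraries could not be separated from each other. With SP2509 and UNC0642 alone its log2 fold changes were -0.33 and -0.35, within the threshold. A close copy, MAP1LC3B2, was listed at 0.381 to 1.44 FPKM and could share reads with it.

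GABARAPL1 (ENSG00000139112, chromosome 12, 10212458 to 10223130, plus strand) encodes another member of the same family. The inhibitor libraries held 36.8 FPKM with vehicle, 70.2 FPKM with SP2509, 22.2 FPKM with UNC0642 and 56.7 FPKM with both. The knockdown libraries held 39.7 FPKM in shLSD1 cells, 39.1 FPKM in shLSD1 cells with Dox, 43.9 FPKM in shG9a cells and 24.7 FPKM in shG9a cells with Dox. It was the only one of the 10 genes past the threshold in opposite directions with the 2 single inhibitors, rising 1.91-fold (1.82 to 2.00) with SP2509 and falling 1.66-fold (1.55 to 1.77) with UNC0642. With both inhibitors it rose 1.54-fold (1.46 to 1.62), a level between those of the single inhibitors. It fell 1.78-fold (1.67 to 1.88) with G9a knockdown, and its level with LSD1 knockdown could not be separated from the uninduced line.

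The 250 bases before the annotated starts of MAP1LC3B, GABARAPL1 and WIPI1 are shown because these genes passed the threshold in both directions over the 5 comparisons. They are RefSeq sequences of GRCh38.p14, written on the gene's strand from 5′ to 3′, at chr16:87392086-87392335 (plus strand) for MAP1LC3B, chr12:10212627-10212876 (plus strand) for GABARAPL1 and chr17:68457497-68457746 (minus strand) for WIPI1. Capitals mark the matches to the motifs searched.
MAP1LC3B: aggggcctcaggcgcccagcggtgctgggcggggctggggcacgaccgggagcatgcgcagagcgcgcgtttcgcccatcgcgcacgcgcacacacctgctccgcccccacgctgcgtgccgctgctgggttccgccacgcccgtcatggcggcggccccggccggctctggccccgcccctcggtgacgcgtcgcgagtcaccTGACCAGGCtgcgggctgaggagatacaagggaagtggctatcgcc
GABARAPL1: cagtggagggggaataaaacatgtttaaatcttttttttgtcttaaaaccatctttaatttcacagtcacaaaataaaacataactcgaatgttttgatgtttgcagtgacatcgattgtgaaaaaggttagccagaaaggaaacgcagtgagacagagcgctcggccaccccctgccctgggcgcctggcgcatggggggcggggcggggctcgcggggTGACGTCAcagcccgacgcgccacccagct
WIPI1: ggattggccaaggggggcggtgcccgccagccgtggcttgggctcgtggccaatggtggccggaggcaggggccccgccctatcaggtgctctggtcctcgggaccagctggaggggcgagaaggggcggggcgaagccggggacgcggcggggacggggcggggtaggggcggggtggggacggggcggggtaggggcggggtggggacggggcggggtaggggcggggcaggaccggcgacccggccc

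All 10 genes had an entry, with 13 start sites between them. These are annotated starts, and which starts were used in these cells was not tested. Some windows lie inside the deposited span of their gene, among them those of MAP1LC3B and BECN1 (chr17:42823880-42824129, minus strand). On both strands, the letters searched were CACGTG (the E-box), TCACGTGA (the core of the CLEAR element bound by TFEB), TGATGNAA (an amino acid response element) and TGACNNNGC (the antioxidant response element), and TGACGTCA (the cAMP response element) was added after the sequences had been seen. The CLEAR core contains the E-box, so those searches overlap. There were 2 matches in the 13 windows. TGACCAGGC lay 46 to 38 bases before the start of MAP1LC3B, and TGACGTCA lay 30 to 23 bases before that of GABARAPL1. Among 35116 RefSeq promoter windows of the same length, 10.91% held the antioxidant response element, 1.646% the cAMP response element, 6.345% the E-box, 3.144% the amino acid response element and 0.8543% the CLEAR core. None of these letters occurred in the WIPI1 window, which is 79.6% G and C, against 74.8% for MAP1LC3B and 51.6% for GABARAPL1. A match in letters is not evidence of a bound site.

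SQSTM1 (ENSG00000161011, chromosome 5, 179806398 to 179838078, plus strand) encodes p62, which binds ubiquitinated cargo and LC3. It had the highest FPKM of the 10 genes in every library, at 113 FPKM with vehicle, 82.1 FPKM with SP2509, 105 FPKM with UNC0642 and 108 FPKM with both inhibitors. In the knockdown table it was at 127 FPKM in shLSD1 cells, 154 FPKM in shLSD1 cells with Dox, 157 FPKM in shG9a cells and 101 FPKM in shG9a cells with Dox. SQSTM1 fell 1.37-fold (1.34 to 1.41) with SP2509 and 1.55-fold (1.52 to 1.59) with G9a knockdown. The fall with SP2509 was within the threshold once values were centred (log2 fold change -0.36). The uninduced shG9a and shLSD1 lines themselves differed in SQSTM1 by 1.23-fold (1.21 to 1.26), more than counting error.

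The combination was then set against each single inhibitor, a pair of comparisons added after the data had been seen. Against SP2509 alone, 6 of the 10 genes rose (SQSTM1, MAP1LC3B, WIPI1, ULK1, ATG12 and ATG16L1) and 0 fell, where 41.8% of tested genes rose and 24.8% fell. Against UNC0642 alone, 5 rose (MAP1LC3B, GABARAPL1, WIPI1, ATG12 and ATG16L1) and 0 fell, where 27.7% rose and 27.1% fell. MAP1LC3B was 4.17-fold (3.91 to 4.45) above SP2509 alone and 4.23-fold (3.96 to 4.51) above UNC0642 alone, and 0.983% of tested genes had a larger rise in the latter comparison. WIPI1 was 3.15-fold (2.47 to 4.06) above SP2509 alone and 3.77-fold (2.90 to 4.94) above UNC0642 alone. WIPI1 was thus lower with UNC0642 alone and higher when UNC0642 was added to SP2509, with log2 fold changes of -0.45 and 1.19, and whether these differ beyond the spread between cultures was not tested.

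**Figure D3:**
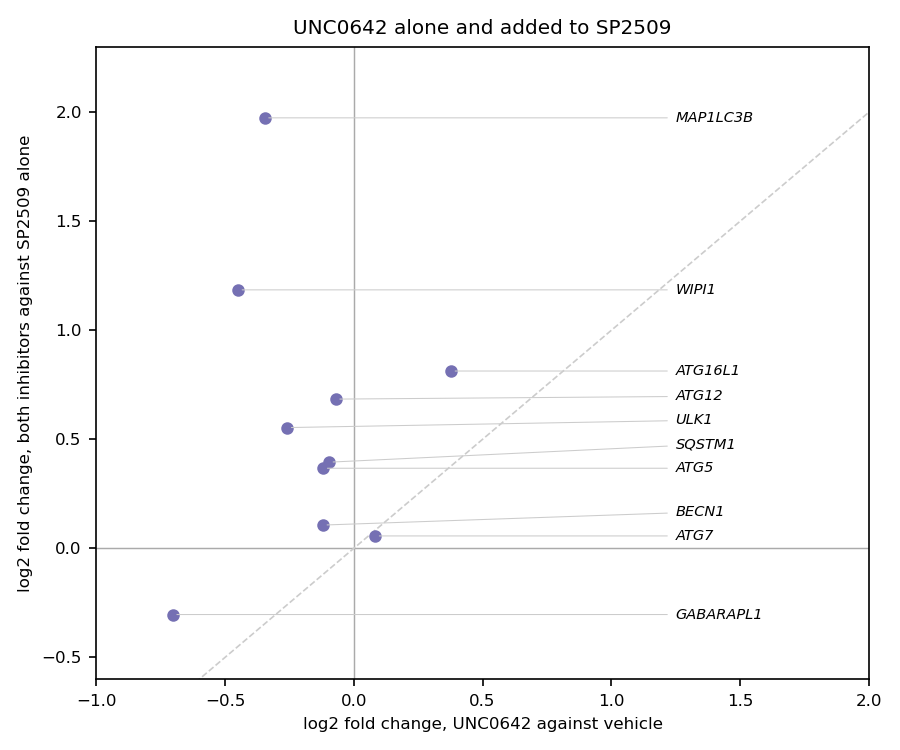
Log2 fold change on (FPKM + 1) of the 10 genes with UNC0642 against vehicle (horizontal) and with both inhibitors against SP2509 alone (vertical), where the dashed line marks equal changes and each point is 1 gene from 1 library per condition. MAP1LC3B and WIPI1 lie farthest above the line, at 1.97 and 1.19 on the vertical axis, and GABARAPL1 is the only gene below 0 there.

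For each gene past 1.5-fold in at least 1 comparison, the genes of most similar profile were sought among those with at least 5 FPKM in all 8 libraries, by the root mean square difference of the 5 log2 fold changes. BECN1 lay closest to SQSTM1 (0.0966), another of the 10 genes, and SQSTM1 closest to USF2 (0.123). ATG16L1 had close neighbours in DAXX (0.0747), USMG5 (0.0963) and TMEM50A (0.114). For WIPI1 they were GTPBP2 (0.221), ATF4 (0.266) and NFKBIB (0.292), for ULK1 TARS (0.130), FAM57A (0.150) and SLC38A1 (0.160), and for GABARAPL1 MT-RNR2 (0.239), SNHG17 (0.243) and TNFRSF10B (0.267). MAP1LC3B had no gene closer than CITED2 at 0.403. The 3 inhibitor comparisons share the vehicle library, so these values are descriptions.

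Transcription factors known to act on autophagy genes were read beside them. ATF4, a factor of the stress response to unfolded protein and amino acid shortage, was at 255 FPKM with vehicle, 210 FPKM with SP2509, 186 FPKM with UNC0642 and 360 FPKM with both inhibitors. It was at 304 FPKM in shLSD1 cells, 293 FPKM in shLSD1 cells with Dox, 292 FPKM in shG9a cells and 164 FPKM in shG9a cells with Dox. WIPI1 and ATF4 both rose with the combination and both fell with UNC0642 and with G9a knockdown. DDIT3 (CHOP), which acts downstream of ATF4 and is best known in stress-induced cell death, fell in all 5 comparisons, with log2 fold changes of -3.72 for G9a knockdown and -3.42 for UNC0642. NFE2L2 (NRF2), which is known to induce SQSTM1, fell with UNC0642 (-0.65) and with both inhibitors (-0.81), where SQSTM1 stayed within the threshold (log2 fold change -0.10 and -0.06). TFEB, a lysosomal and autophagy regulator, was listed at no more than 2.03 FPKM in any library. TFE3 and MITF, also listed here as regulators, were at 14.5 to 25.6 FPKM and 1.65 to 6.72 FPKM. FOXO3 rose with SP2509 (0.70) and with both inhibitors (0.55) and fell with LSD1 knockdown (-0.50) and G9a knockdown (-0.61). A part of these factors in the levels of the 10 genes was not tested.

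Of 67 other autophagy genes listed by role, 57 to 61 entered each comparison. With both inhibitors 22 of 59 rose and 14 fell, where 31.4% of all tested genes rose and 31.7% fell. With SP2509 12 of 57 rose and 15 fell (all tested genes, 21.0% and 39.9%), and with UNC0642 6 of 57 rose and 12 fell (18.2% and 16.9%). With LSD1 knockdown 15 of 60 rose and 5 fell (24.8% and 12.3%), and with G9a knockdown 15 of 61 rose and 10 fell (32.9% and 17.6%). Genes with at least 5 FPKM had a median log2 fold change of 0.11 with LSD1 knockdown and 0.14 with G9a knockdown. After centring on that median, 5 rose and 9 fell with LSD1 knockdown, 9 rose and 17 fell with G9a knockdown, and 17 rose and 14 fell with SP2509. For the 10 genes, centring gave 1 up and 1 down in place of 1 and 2 with SP2509, 1 up and 2 down in place of 0 and 2 with UNC0642, and 1 up and 7 down in place of 1 and 6 with G9a knockdown. The shares of all tested genes were taken without centring only, so the centred counts cannot be set against a background. The median log2 fold change of the other genes was 0.07 with G9a knockdown, where that of the 10 genes was -0.60.

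By role, the initiation genes other than ULK1 showed 3 falls of 4 tested genes with SP2509, where 39.9% of all tested genes fell. These were ATG13 (-1.01) and ATG101 (-0.55), partners of ULK1, and the related kinase ULK3 (-0.92). The membrane supply genes, which include the relatives of WIPI1, showed 4 rises and 1 fall of 8 with both inhibitors, where 31.4% of all tested genes rose and 31.7% fell, the rises being ATG2A (1.42), WIPI2 (1.13), WDR45 (1.08) and WDR45B (0.80). The conjugation genes showed 2 rises and 4 falls of 7 in the same comparison, where ATG12 and ATG16L1 rose. In the family of MAP1LC3B and GABARAPL1, GABARAPL2 rose with both inhibitors, from 13.1 to 18.9 FPKM. GABARAP itself was listed at 0.0247 to 0.204 FPKM, on 1 to 8 reads a library, so its level is uncertain. The deposited genes that overlap it lie on the opposite strand, and whether reads shared with another gene lowered its count was not tested.

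**Figure D4:**
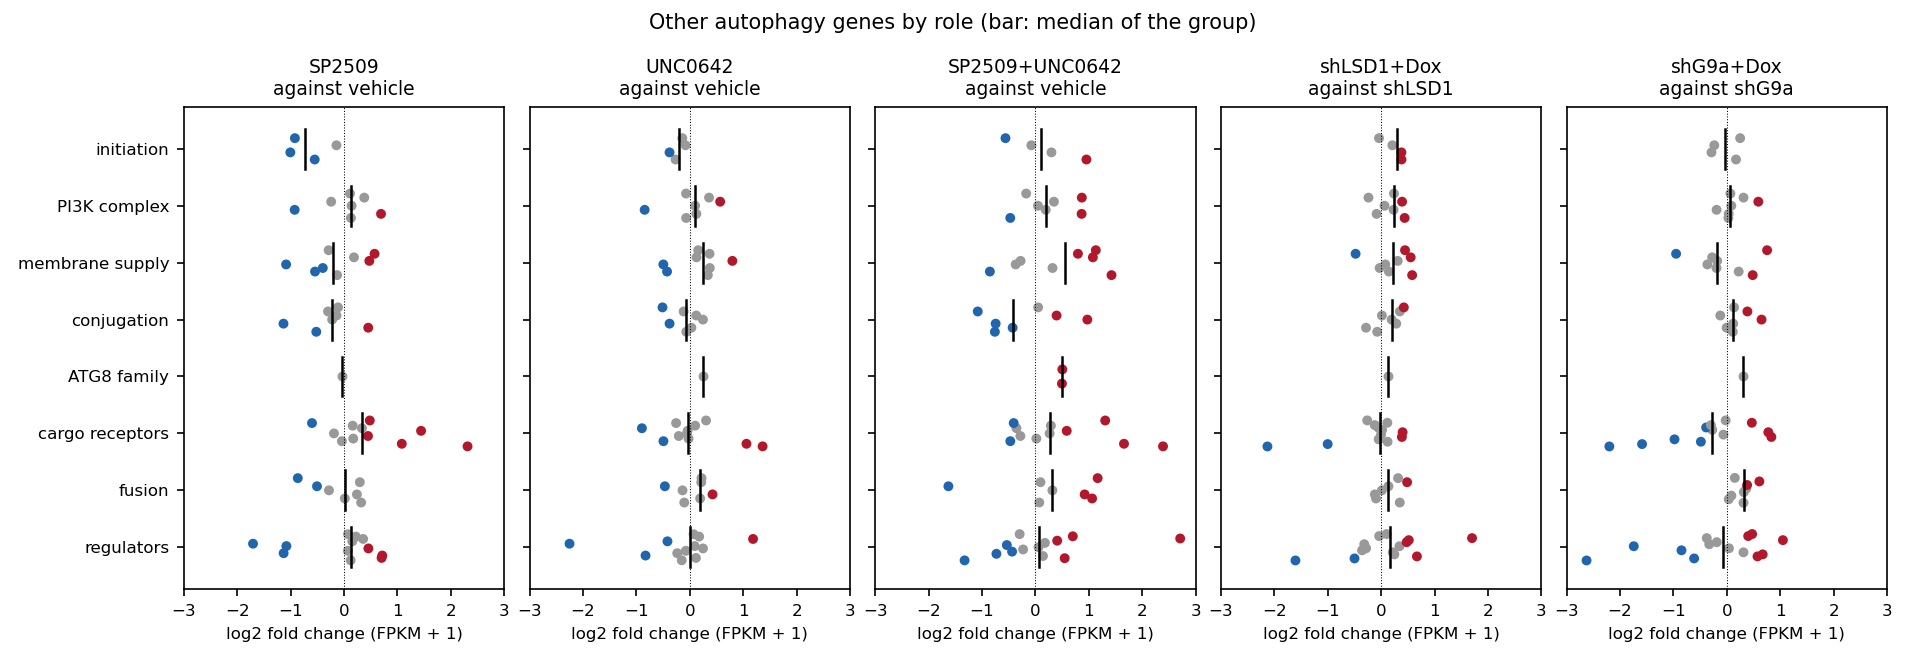
Log2 fold change on (FPKM + 1) of the tested genes among 67 other autophagy genes, by role and comparison, where each point is 1 gene, red and blue mark genes past 1.3-fold and the black bar is the median of the role. The cargo receptors hold the largest rises with SP2509 and among the largest falls with the knockdowns, reaching 2.31 and -2.20 (BNIP3).

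Among the cargo receptors, the role that SQSTM1 shares, BNIP3 had the largest rises and falls. BNIP3, which marks mitochondria for autophagy when oxygen is low, was at 23.8 FPKM with vehicle, 122 FPKM with SP2509, 62.9 FPKM with UNC0642 and 129 FPKM with both inhibitors. In the knockdown table it was at 141 FPKM in shLSD1 cells and 31.3 FPKM with Dox, and at 129 FPKM in shG9a cells and 27.2 FPKM with Dox. BNIP3 and its relative BNIP3L rose in all 3 inhibitor comparisons and fell in both knockdowns. FUNDC1, another receptor for mitochondria, was within the threshold with the inhibitors (0.17, -0.02 and 0.02 with SP2509, UNC0642 and both) and rose with LSD1 knockdown (0.39) and G9a knockdown (0.83). With SP2509, OPTN (1.44) also rose, and SESN2 (-1.71), ATG3 (-1.14) and MTOR (-1.13) fell most.

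Regulators were led by TP53INP2, a protein that helps recruit LC3 to the autophagosome. It rose with UNC0642 (1.19), with both inhibitors, from 1.89 to 17.9 FPKM (2.71), and with LSD1 knockdown, from 3.62 to 14.0 FPKM (1.70), and was within the threshold with SP2509 (0.36) and G9a knockdown (-0.38). SESN2, a stress-induced inhibitor of mTORC1, fell with UNC0642 (-2.25) together with RETREG1 (-0.90) and NRBF2 (-0.84), and with G9a knockdown (-1.74). DDIT4, another such inhibitor, fell with both inhibitors (-1.33), with LSD1 knockdown (-1.60) and with G9a knockdown, from 459 to 73.4 FPKM (-2.63). STX17 (-1.63) and ATG4C (-1.08) also fell most with both inhibitors. MITF (0.67) and ATG2A (0.58) rose with LSD1 knockdown, and TP53INP1 (1.05), FUNDC1 (0.83) and NCOA4 (0.78) rose with G9a knockdown.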

How the data were processed

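The authors mapped the reads (GRCh38 per the labels; the aligner and counting tool are not given in the sources used here) and deposited FPKM values, 1 column per library, in 2 tables with 31582 and 28942 genes. Genes were taken by the deposited gene name. The members and lists were chosen with earlier results of these data known. Other genes were named as the 3 with the largest rises and falls in each comparison, from a list by role. Library totals came from the steps of genes with 1 exon, which were whole reads in all cases (tolerance 0.01 read), and each gene's reads from the smallest length that made its values whole in all 8 libraries, or from each table by the length nearest to GENCODE 44 (ATG5). The smallest length replaced the nearest one after 9 of 64 other genes were seen to differ, and 0 of 9 members did. In simulated data 298 of 300 genes gave exact reads. Fold changes used a pseudocount of 1 FPKM. Alternatives were a pseudocount of 0.1, no filter, a fold of 2, centring on genes of at least 5 FPKM, a counting interval that leaves out 1, and the mean of the uninduced lines. Python 3.11.15, numpy 2.4.6, pandas 2.3.3, scipy 1.17.1 and matplotlib 3.10.9 were used.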

Additional observations from a re-analysis of the deposited data

Results flagged for a closer look

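WIPI1 moved in opposite directions when UNC0642 was given alone and when it was added to SP2509. Its log2 fold change was -0.45 against vehicle and 1.19 for both inhibitors against SP2509 alone, each past the threshold in 1 library per condition. The difference between these 2 effects was not tested.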

How the results depend on the processing

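No call of the 10 genes changed direction under the alternatives run. After centring, values within the threshold changed sign for WIPI1, ATG7 and ATG16L1 with LSD1 knockdown and for ATG5 and ATG7 with G9a knockdown, and ATG12 was lower with G9a knockdown (count 7). For the 10 autophagy genes, a fold of 2 left 0 higher and 0 lower with SP2509, 0 lower with UNC0642, 2 higher with both inhibitors, 0 lower with LSD1 knockdown, and 0 higher and 1 lower with G9a knockdown. With a pseudocount of 0.1, and also after centring, ATG16L1 was higher with UNC0642 (count 1), and centring left 1 lower with SP2509. With a pseudocount of 0.1, WIPI1 was also lower with SP2509. For the other autophagy genes, a fold of 2 left 3 higher and 6 lower with SP2509, 3 and 1 with UNC0642, 9 and 3 with both inhibitors, 1 and 3 with LSD1 knockdown, and 1 and 4 with G9a knockdown. A pseudocount of 0.1 gave 12 higher with UNC0642, and centring gave 5 and 9 with LSD1 knockdown and 9 and 17 with G9a knockdown. The lower counts at a fold of 2 follow from its construction, and the cause of the others was not tested. The shares of all tested genes were taken at the main settings only, so none of these alternative counts can be set against a background. With no filter, and with a counting interval that leaves out 1, no count of the 10 genes changed. With the mean of the uninduced lines as control, ATG12 became lower with G9a knockdown (log2 fold change -0.39, count 7 in place of 6), and WIPI1, within the threshold with LSD1 knockdown, changed sign (-0.11). No paired analysis was possible because each condition has 1 library. Depth limits WIPI1 most, at 74 to 277 reads a library.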
